A study of Rattus norvegicus with 20 samples.

Results

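The let-7 and miR-98 guide strands are 8 mature miRNAs that arise from the 5′ arms of let-7 hairpins and of the miR-98 hairpin, namely rno-let-7a-5p, rno-let-7b-5p, rno-let-7c-5p, rno-let-7d-5p, rno-let-7e-5p, rno-let-7f-5p, rno-let-7i-5p and rno-miR-98-5p (the rat prefix is left out from here on). They were taken by name from the deposited tables, and all 8 were found among the 617 miRNAs with reads. All 8 passed the filter on low counts (at least 10 reads in at least 5 of the 20 libraries), as did 500 miRNAs in all. A further let-7 guide strand is listed in the tables, is not among these 8, and is not described here.

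Small RNA had been sequenced from punches of the adBNST, the anterodorsal division of this nucleus of the extended amygdala (BNST, bed nucleus of the stria terminalis), in 20 Sprague-Dawley rats. After weaning at postnatal day 21, they lived for 6 weeks either alone (socially isolated, SI) or with same-sex littermates in cages of 3 (group housed, GH). There were 5 rats in each of the 4 groups of housing and sex. The study chose the sequenced females for high RNA integrity and a range of estradiol levels, and describes no such choice for males. Every rat was 9 weeks old and had been through the elevated plus maze before the brain was taken, so no group was without that test. The comparison asks whether isolation in adolescence is followed by different miRNA levels in the adult adBNST, and whether this depends on sex.

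let-7 was first known as a switch in the timing of larval development in the nematode. In mammals the family is low in stem cells, rises as cells differentiate, and is among the most abundant miRNAs of the adult brain. A guide strand is loaded into an Argonaute protein and pairs through its seed with mRNAs, and well-known targets of the let-7 seed are Lin28, Hmga2, Ras and Myc transcripts. LIN28 in turn blocks the maturation of let-7 hairpins, in part by bringing in enzymes that add U residues to the precursor.

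The mature sequences show what the 8 share and where they part. They are printed 5′ to 3′ as the reference forms of the RefSeq table of the GRCr8 assembly, which were identical to the reference forms counted in the files. Capitals mark the seed, bases 2 to 8.

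let-7a-5p: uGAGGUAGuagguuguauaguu
let-7b-5p: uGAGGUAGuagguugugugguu
let-7c-5p: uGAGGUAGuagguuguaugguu
let-7d-5p: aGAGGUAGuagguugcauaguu
let-7e-5p: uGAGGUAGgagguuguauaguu
let-7f-5p: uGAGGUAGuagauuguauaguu
let-7i-5p: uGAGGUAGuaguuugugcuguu
miR-98-5p: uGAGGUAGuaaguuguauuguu

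All 8 are 22 bases long and carry the same seed, GAGGUAG. Counted from the 5′ end with the base of let-7a-5p first, let-7c-5p differs from let-7a-5p by A19G, let-7e-5p by U9G and let-7f-5p by G12A. let-7b-5p differs by A17G and A19G, let-7d-5p by U1A and U16C, and miR-98-5p by G11A and A19U. let-7i-5p is the farthest, with G12U, A17G, U18C and A19U. GC content ran from 31.8% in let-7f-5p and miR-98-5p to 45.5% in let-7b-5p. Because some members differ by 1 base, a read with 1 sequencing error can be counted for the wrong member. Reads with a mismatch were between 1.72% (let-7f-5p) and 2.51% (let-7b-5p) of a member's reads, and reads that matched several miRNAs were between 0.135% (let-7i-5p) and 0.789% (let-7a-5p).

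In the RefSeq annotation of GRCr8, the 8 sequences lie in 11 miRNA genes, and the positions given are those of the mature 5′ arms. Chromosome 17 holds let-7a-1 (chr17:16320145-16320166), let-7f-1 (chr17:16320508-16320529) and let-7d (chr17:16322273-16322294) side by side on the plus strand. let-7f-2 (chrX:24460052-24460073) and miR-98 (chrX:24460663-24460684) form another such group on the plus strand, as do let-7c-2 (chr7:118683636-118683657) and let-7b (chr7:118684044-118684065). The let-7i sequence lies at chr7:60527935-60527956 on the minus strand. let-7e (chr1:67350243-67350264), let-7a-2 (chr8:50805219-50805240) and let-7c-1 (chr11:29688127-29688148) are on the plus strand. let-7a-5p, let-7c-5p and let-7f-5p each come from 2 genes with the same mature sequence, so their counts are sums over both genes.

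The libraries held 3428930 to 11383055 miRNA reads each. Levels are given as RPM, normalized reads per 1000000 miRNA reads of the TMM-scaled library. No library was a copy of another over the 190 pairs. The library of the SI female numbered 16 stood farthest from the other 4 of its group over all miRNAs tested (root mean square log2 distance 1.76), followed by the SI males numbered 17 (1.33) and 20 (1.12). The SI male numbered 20 also held the highest sum of choroid plexus and ependyma markers, at 18187 RPM. Both SI rats numbered 17 have file names that give the other sex than their labels. They were placed by their labels, and the exchange was run as an alternative, as were fits without these libraries. Among the markers of the tissue, neuronal miR-124-3p, miR-9a-5p and miR-128-3p together ran from 82243 to 186863 RPM. Markers of microglia reached at most 51.1 and markers of liver and muscle at most 33.0 and 40.9.

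The members took a large share of the miRNA reads. Their sum was 26.0% ± 6.73 (SD, n = 20) of the miRNA reads of a library. Among males it was 22.6% ± 3.26 with group housing and 27.8% ± 3.99 with isolation, and among females 23.3% ± 5.61 and 30.2% ± 10.4 (SD, n = 5). The lowest rat was a GH female at 16.9% and the highest was the SI female numbered 16 at 46.3%. Within each sex the ranges of the 2 housing groups overlapped.

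let-7c-5p was the most abundant member, at 73252 ± 32549 RPM (SD, n = 20), and stood above let-7a-5p in 20 of 20 rats. let-7a-5p followed with 56138 ± 22597 (SD, n = 20) and let-7f-5p with 49321 ± 13397 (SD, n = 20), and these neighbors were not separated, with let-7a-5p the higher in 13 of 20 rats. let-7b-5p was at 23978 ± 11295 (SD, n = 20), below let-7f-5p in 19 of 20 rats. Next came let-7e-5p and let-7d-5p, at 19651 ± 8237 (SD, n = 20) and 19443 ± 6650.0 (SD, n = 20), and each was the higher in 10 of 20 rats. let-7i-5p, at 14850 ± 2368 (SD, n = 20), had the narrowest spread relative to its mean. miR-98-5p was the least abundant, at 9261 ± 3050.0 (SD, n = 20), and even so its mean rank was 25 of 617 miRNAs. All 8 have the same length, so these levels can be set side by side, although ligation to the adapters can favor some sequences over others.

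In the comparison of SI with GH rats over both sexes, 4 of the 8 guide strands rose, and none fell. let-7d-5p, miR-98-5p, let-7a-5p and let-7f-5p passed the threshold in the edgeR quasi-likelihood test, with Benjamini-Hochberg adjustment over all 500 miRNAs and a threshold of 0.05. The background in this comparison was 17.6% of miRNAs called and 7.4% called higher in SI. The median log2 fold change of the 8 members was 0.52, against −0.0046 over all 500 miRNAs. All 8 members had a log2 fold change above 0, as did 49.6% of all miRNAs. The members share reads of like sequence and libraries, so they are not independent of each other. Whether fewer cells of a type or less RNA per cell lies behind a lower level cannot be told apart in punches of tissue.

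let-7d-5p, whose gene lies beside let-7a-1 and let-7f-1, showed the largest change. Its RPM values were 13955, 14080, 15932, 16396 and 17148 in the 5 GH males and 20330, 21334, 22306, 23529 and 30992 in the 5 SI males. In females they were 10803, 12265, 14034, 17338 and 19036 in GH rats and 13954, 18271, 20732, 30091 and 36332 in SI rats. Every SI male was thus above every GH male, whereas the female groups overlapped and only 3 of the 5 SI values exceeded all GH values. Over both sexes the log2 fold change was 0.66 ± 0.16 (SE; edgeR quasi-likelihood test, adjusted p = 0.0076).

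miR-98-5p, which shares its X-chromosomal locus with let-7f-2, changed by a like amount. It was at 6842, 7053, 7202, 7211 and 8411 RPM in GH males and at 9825, 10398, 11068, 11760 and 12217 in SI males. GH females had 4355, 4498, 7039, 9066 and 10524, and SI females had 6524, 8721, 13342, 13424 and 15734. The male groups did not overlap, and in females 3 of 5 SI rats were above every GH rat. The log2 fold change over both sexes was 0.65 ± 0.17 (SE; edgeR quasi-likelihood test, adjusted p = 0.013).

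let-7f-5p is the sum of let-7f-1 and let-7f-2 and has the lowest GC content together with miR-98-5p. Its values were 38841, 39182, 39738, 45094 and 46497 in GH males against 49665, 50736, 60396, 68648 and 69191 in SI males. They were 31190, 33258, 38322, 43194 and 50913 in GH females against 33836, 48651, 57442, 60589 and 81038 in SI females. Again the male groups were apart and the female groups overlapped. The log2 fold change was 0.51 ± 0.14 (SE; edgeR quasi-likelihood test, adjusted p = 0.014).

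let-7a-5p, from which the other members are compared by sequence, was the last to pass. GH males had 39461, 39461, 41825, 42972 and 52791 RPM and SI males had 48211, 57606, 68854, 70948 and 71114. GH females had 27801, 30213, 41932, 63378 and 65498 and SI females had 36396, 53304, 60761, 82180 and 128053. Groups overlapped in both sexes, with 4 of 5 SI males and 2 of 5 SI females above every GH rat of their sex. The log2 fold change was 0.60 ± 0.19 (SE; edgeR quasi-likelihood test, adjusted p = 0.036).

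Of these calls, those of let-7d-5p, let-7f-5p and miR-98-5p held in each of the 20 fits that left out 1 rat, whereas that of let-7a-5p was lost in 12 of them. Without the SI female numbered 16, let-7a-5p was at 0.45 with an adjusted p of 0.070 in the edgeR test. Without both this rat and the SI male numbered 20, 3 of the 8 members and 17.2% of all miRNAs were called. These 3 members were at 0.57 for let-7d-5p, 0.41 for let-7f-5p and 0.57 for miR-98-5p. With the rats numbered 17 exchanged, 4 members and 16.4% of all miRNAs were called.

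The other 4 members did not pass. let-7c-5p spanned 42931 to 86994 RPM in group-housed males and 54858 to 96565 RPM in isolated males. In females it spanned 32606 to 96192 RPM with group housing and 49750 to 178767 RPM with isolation. Its log2 fold change was 0.54 ± 0.22 (SE; edgeR quasi-likelihood test, adjusted p = 0.089). With DESeq2, the tool of the study, let-7c-5p was called as well (adjusted p = 0.0497), for 5 of 8 members in all, where DESeq2 called 35.3% of the 374 miRNAs it gave an adjusted p.

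let-7e-5p spanned 12758 to 22978 RPM (GH) and 14435 to 24551 RPM (SI) among males, and 8228 to 28003 RPM (GH) and 14438 to 46294 RPM (SI) among females. Its log2 fold change was 0.47 ± 0.21 (SE; edgeR quasi-likelihood test, adjusted p = 0.12). let-7b-5p spanned 12155 to 42364 RPM (GH) and 13820 to 28210 RPM (SI) among males, and 10117 to 37058 RPM (GH) and 17726 to 56051 RPM (SI) among females. It had a log2 fold change of 0.29 ± 0.25 (SE; edgeR quasi-likelihood test, adjusted p = 0.46). In all 4 members that did not pass, the housing groups overlapped within each sex.

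let-7i-5p, the member farthest in sequence, had the smallest difference. Its level spanned 12635 to 14704 RPM (GH) and 12022 to 19009 RPM (SI) among males, and 11136 to 15524 RPM (GH) and 12367 to 18565 RPM (SI) among females. The log2 fold change was 0.22 ± 0.12 (SE; edgeR quasi-likelihood test, adjusted p = 0.20). All but 1 of the 5 SI males were above every GH male, and the remaining one, the rat numbered 17, was below every GH male.

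**Figure D1:**
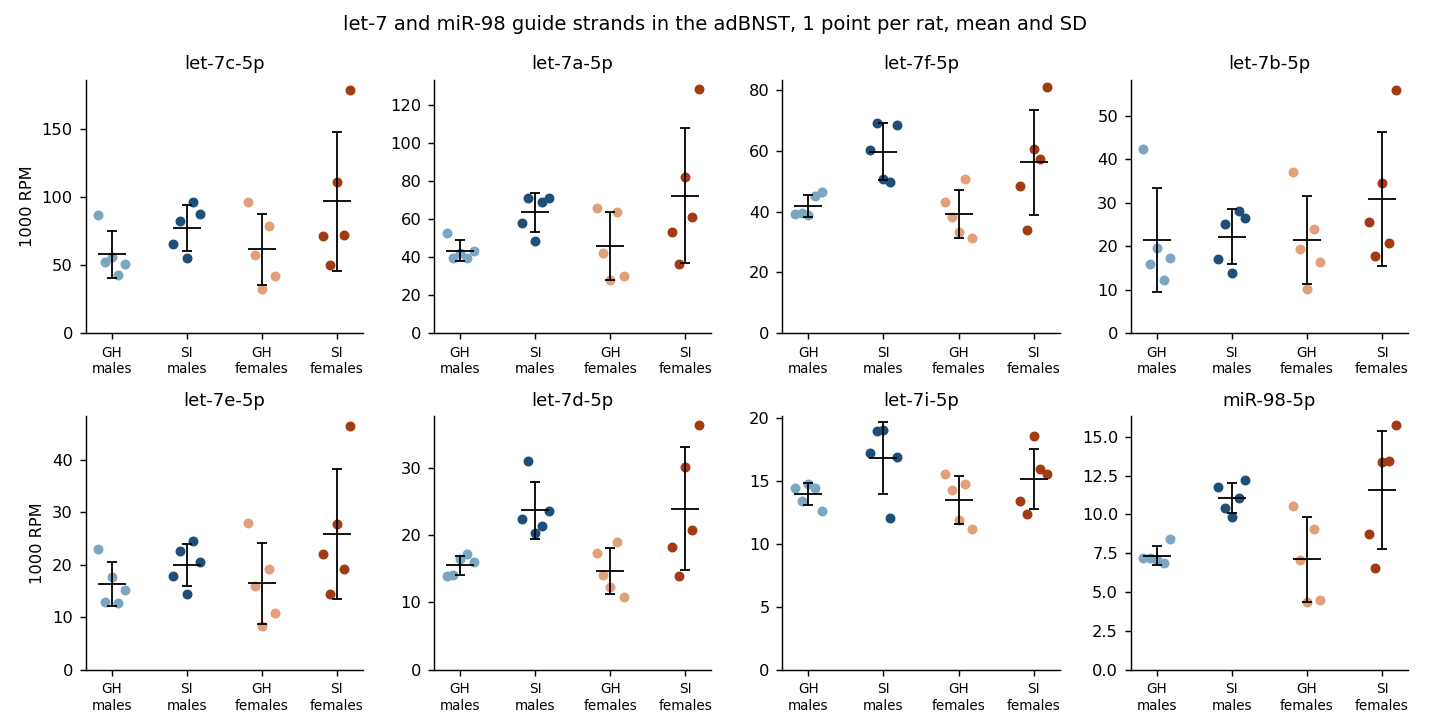
Level of each guide strand in 1000 RPM (vertical axis, from 0) in the 4 groups; each point is 1 rat, and the bar shows the mean and SD of 5 rats. SI males lie above all GH males for let-7d-5p, let-7f-5p and miR-98-5p, and the highest point of let-7c-5p, at 178767 RPM, is the SI female numbered 16.

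Within each sex, no member passed the edgeR test. In males 0 of 8 were called, against a background of 4% of miRNAs, and 3 of 8 had an unadjusted p under 0.05, as did 23% of all miRNAs. DESeq2 called 0 members in males (19.8% of all miRNAs with an adjusted p), limma voom with quality weights 3 (17.4%), and edgeR fitted to the 10 males alone 4 (17.8%). The study itself, with DESeq2, reported let-7d-5p as raised in both sexes. In the DESeq2 fit here let-7d-5p had an adjusted p of 0.060 in males and was not called. At an unadjusted p under 0.05, the study also listed let-7i-5p as differing in males only and let-7e-5p in females only. In the edgeR test here, the unadjusted p was 0.11 for let-7i-5p in males and 0.040 for let-7e-5p in females. Every SI male lay above every GH male for 3 of 8 members, against 4.6% of all miRNAs. In females no member had groups that were apart, and 0.4% of all miRNAs had every SI female above every GH female and 1.6% every SI female below. In males the log2 fold changes were 0.61 ± 0.22 for let-7d-5p, 0.59 ± 0.24 for miR-98-5p, 0.55 ± 0.27 for let-7a-5p and 0.51 ± 0.20 for let-7f-5p (SE; edgeR adjusted p from 0.10 to 0.22). Those of let-7c-5p, let-7e-5p, let-7i-5p and let-7b-5p were 0.42 ± 0.31, 0.29 ± 0.30, 0.27 ± 0.16 and 0.046 ± 0.36. That of let-7b-5p was at −0.083 when libraries were scaled by their totals alone, so no direction is given for it in males.

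In females 0 of 8 were called by edgeR, against a background of 0.4%, and 6 of 8 had an unadjusted p under 0.05, as did 20.8% of all miRNAs. DESeq2 called 2 members in females, let-7d-5p (adjusted p = 0.025) and miR-98-5p (adjusted p = 0.034), and 17.9% of all miRNAs with an adjusted p. The study too named miR-98 among the miRNA genes that differed with housing in females. The log2 fold changes in females were 0.70 ± 0.24 for miR-98-5p, 0.70 ± 0.22 for let-7d-5p, 0.66 ± 0.30 for let-7e-5p, 0.66 ± 0.27 for let-7a-5p and 0.65 ± 0.31 for let-7c-5p (SE). let-7b-5p, let-7f-5p and let-7i-5p were at 0.54 ± 0.36, 0.52 ± 0.20 and 0.17 ± 0.16, and that of let-7i-5p was at −0.059 with library totals. The median over all 500 miRNAs in females was −0.13, and that of the members was 0.66. One SI female decided the count, since without the SI female numbered 10, whose members were the lowest of its group, edgeR called 4 members in females (and 12.6% of all miRNAs), namely let-7a-5p, let-7d-5p, let-7f-5p and miR-98-5p.

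No member passed a test of a difference between the sexes. Between GH females and GH males the log2 differences of the members ran from −0.089 to 0.089, and 0 of 8 were called, with a background of 0%. Between SI females and SI males they ran from −0.15 to 0.48, and 0 of 8 were called, again with a background of 0%. The test of whether the housing difference itself varied with sex called 0 of 8 members, against a background of 0.4%. Its largest value was 0.49 ± 0.50 (SE) for let-7b-5p, with an edgeR adjusted p of 0.91, and DESeq2 too called 0 members. In these 3 comparisons 0 of 8 members had an unadjusted p under 0.05. A missed threshold with 5 rats a group does not show that the sexes responded alike.

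**Figure D2:**
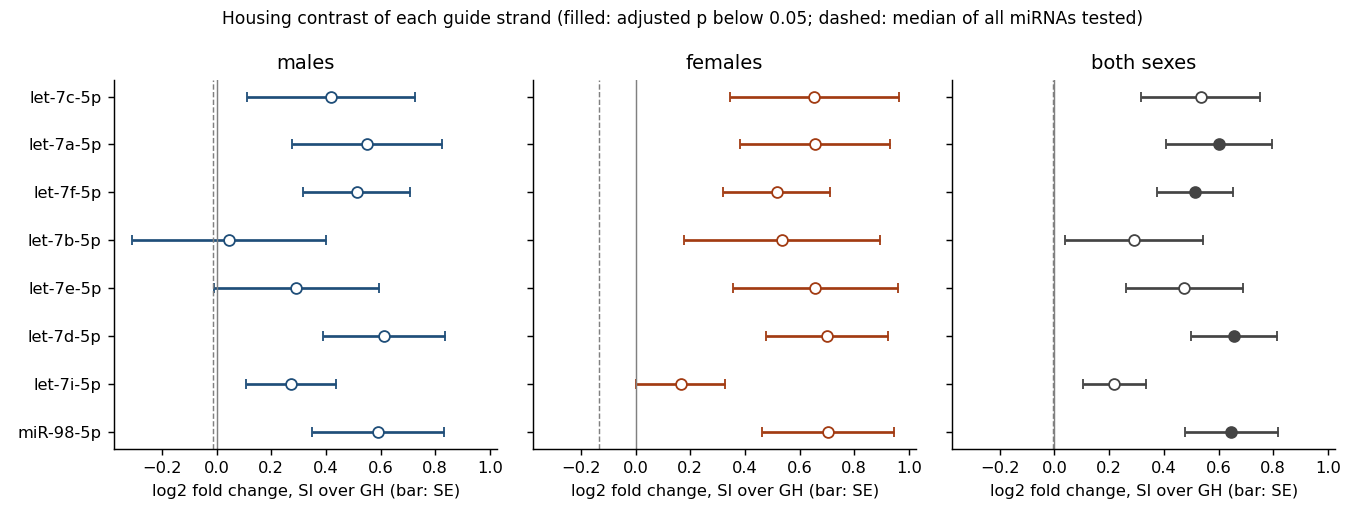
Log2 fold change of SI over GH (horizontal axis) for each guide strand in males, females and both sexes; points are edgeR estimates, bars are standard errors, filled points have an adjusted p under 0.05, and the dashed line is the median of all 500 miRNAs. The 4 filled points are let-7a-5p, let-7f-5p, let-7d-5p and miR-98-5p in both sexes.

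Other values moved with housing beside the members. Depth was higher in SI rats. Its medians were 7290553 and 6998674 reads in SI males and SI females, against 4983188 and 5276646 in GH males and GH females. With all libraries thinned to the smallest total, 4 members and 20% of all miRNAs were called. Markers of the vessel wall summed to 13502 ± 1832 RPM in GH males and 6208 ± 1152 in SI males, and to 15384 ± 3984 in GH females and 8432 ± 5110 in SI females (SD, n = 5). Of those 3 markers, 2 fell over both sexes, where 17.6% of all miRNAs were called. They were miR-126a-3p (endothelium), by 1.11, and miR-143-3p (smooth muscle), by 0.99 on the log2 scale. Oligodendrocyte markers summed to 90.0 ± 37.1 and 38.8 ± 14.8 in GH and SI males and to 161.4 ± 92.9 and 31.6 ± 26.4 in GH and SI females, and 1 of 2, miR-338-3p, fell by 1.74. The study listed the opposite arm of the same hairpin as raised with isolation in both sexes. That arm was not among the markers, so the fall is given for the marker arm alone. Whether oligodendrocytes differed with housing was not tested.

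Of 3 blood markers 1 rose, miR-486 by 0.92, while the red cell markers miR-451-5p and miR-144-3p were at 0 in 4 and 11 libraries. None of 3 neuronal, 3 microglial and 3 tested choroid plexus and ependyma markers passed the edgeR test over both sexes. DESeq2, which called 35.3% of the miRNAs it gave an adjusted p, also called neuronal miR-124-3p (adjusted p = 0.047). It called the oligodendrocyte marker miR-219a-5p (0.022) and the vessel wall marker miR-145-5p (0.046) as well. The edgeR log2 fold changes of these markers were −0.41, −2.07 and −0.63. Across 327 miRNAs with at least 100 reads on average, the log2 fold change over both sexes went with GC content (Pearson r = 0.31 across miRNAs, which are not independent). With a linear GC trend removed within each library, 7 of 8 members were called, all but let-7b-5p, and 24.6% of all miRNAs. The part of these other cells, of depth and of GC content in the members' difference was not tested.

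The makeup of the family differed less than its sum. let-7c-5p made up 26.8% ± 2.87 of the members' reads in GH rats and 27.2% ± 2.82 in SI rats (SD, n = 10). let-7a-5p was at 20.3% ± 1.06 and 21.4% ± 0.91. let-7i-5p went from 6.52% ± 1.13 in GH to 5.46% ± 1.51 in SI rats, and let-7b-5p from 9.44% ± 2.52 to 8.31% ± 1.44. let-7d-5p and miR-98-5p went from 7.12% ± 1.25 and 3.31% ± 0.41 to 7.69% ± 0.91 and 3.71% ± 0.60. With the sexes together, the ranges of GH and SI rats overlapped for each of these members. Among males alone those of let-7a-5p did not, at 18.9% to 20.7% in GH and 20.9% to 22.0% in SI rats. Its ranges in females, and those of the other members named here in each sex, overlapped.

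Members rose and fell together from rat to rat. Over the 28 pairs of members, Pearson's r of the log2 levels across the 20 rats ran from 0.29 to 0.98, with a median of 0.80. The closest pair was let-7c-5p with let-7e-5p, at r = 0.98. let-7d-5p was closest to let-7f-5p (r = 0.95), and let-7i-5p was closest to let-7d-5p, at only r = 0.73. These are descriptions over libraries that share depth and scaling, and they carry no test.

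Outside the family, the miRNAs whose log2 level across the 20 rats was most like that of the summed members were miR-3099 (r = 0.91), miR-125a-5p (r = 0.90), miR-485-3p (r = 0.90), miR-125b-1-3p (r = 0.90) and miR-323-5p (r = 0.89), out of 327 compared. miR-125a-5p comes from the same locus as let-7e. Without the 2 rats whose summed level was farthest from the median, GH female 16 and SI female 16, these values of r were 0.83, 0.87, 0.80, 0.78 and 0.80.

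Each member was read in many forms besides its reference form. In all, 6 classes of reads were counted for 132 miRNAs with at least 1000 reads in every library. They are the reference form, forms with added A at the 3′ end (A tail), forms with added U (U tail), forms that lack bases at the 3′ end, forms with further templated bases there, and forms with a shifted 5′ end. A read with a shifted 5′ end can also count in a tail or 3′ end class. The reference form took 69.3% of the reads of miR-98-5p, 68.2% of let-7f-5p, 65.9% of let-7d-5p, 63.5% of let-7i-5p, 63.4% of let-7a-5p, 63.1% of let-7c-5p and 48.7% of let-7e-5p (means of 20 rats). In let-7b-5p it took only 37.0%. The median over the 132 miRNAs was 36.2%.

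The most read other form differed between members. In 7 of 8 it was the form that lacks the last U, with between 10.2% (let-7i-5p) and 21.7% (let-7e-5p) of the member's reads. In let-7b-5p it was a form 1 base longer, with 17.5% ± 1.10 (SD, n = 20) of its reads, printed here with the added base in capitals.

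let-7b-5p with 1 more base: ugagguaguagguugugugguuU

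By the deposited alignment fields, the templated base after let-7a-5p, let-7b-5p, let-7c-5p and let-7d-5p is a U. For let-7f-5p a U was seen as well. It holds for at least 1 of the 2 let-7f genes, as the let-7f-1 hairpin was not available here. In these members a longer end with a templated U and an added U have the same sequence. After let-7e-5p, let-7i-5p and miR-98-5p the templated base is a G, so an added U can be told from the hairpin there. Such U tails made up 8.19% of let-7e-5p reads, 7.15% of let-7i-5p reads and 2.78% of miR-98-5p reads. A tails were highest in let-7b-5p, at 17.1%, and lowest in miR-98-5p, at 4.76%. Shifted 5′ ends, which would change the seed, were rare in all members, between 1.09% and 1.84% of reads, where the median over 132 miRNAs was 2.41%.

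**Figure D3:**
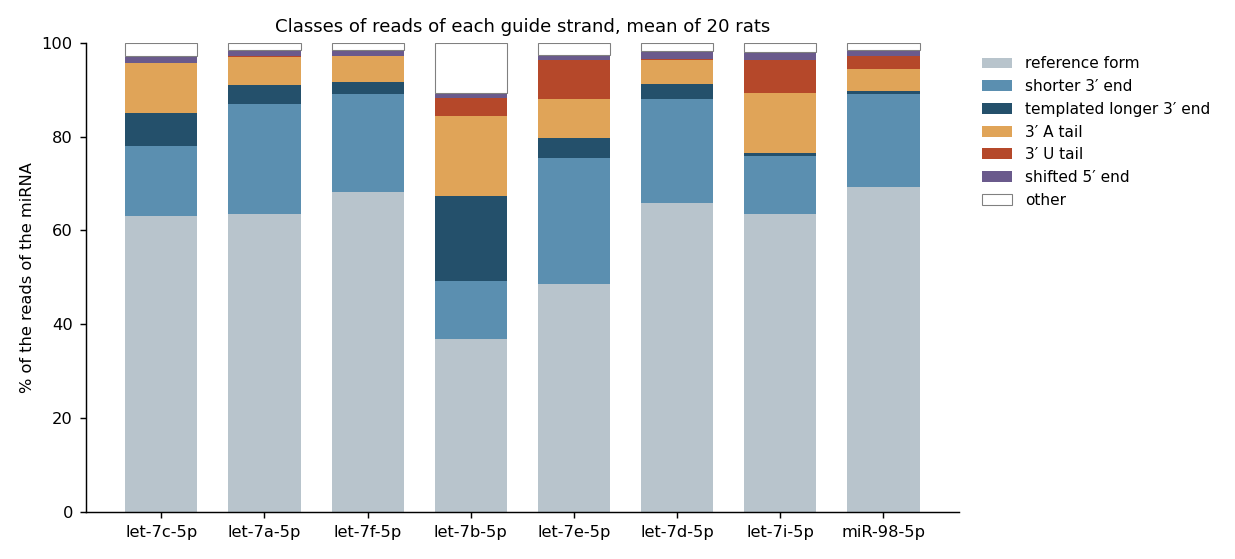
Share of the reads of each guide strand (vertical axis, percent, mean of 20 rats) in the reference form and 5 classes of variant forms. Reads with a shifted 5′ end can also count in a tail or 3′ end class. The white part is what the stacked shares leave, so it understates the reads outside all classes. let-7b-5p stands out with a reference form of 37.0% and templated longer ends of 18.1%, and U tails show in let-7e-5p and let-7i-5p.

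The shares of the classes within a member do not depend on how libraries are scaled. They were compared as log2 odds (share in the class over share outside it) with limma, adjusted over the 786 shares of 132 miRNAs. Over both sexes 3 of the 48 shares of the members were called, against a background of 6.87%, and all 3 belonged to let-7i-5p. The members were thus called no more often than shares in general. The 3 classes also divide the same reads, so these calls are not independent of each other. Fewer of the let-7i-5p reads were of the reference form, and more had a U tail or a shorter 3′ end. These forms are printed with the added base in capitals, together with the RefSeq hairpin of let-7i (GRCr8, chr7:60527877-60527961, minus strand), whose capitals mark the guide strand and show the G that follows it.

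let-7i-5p reference form: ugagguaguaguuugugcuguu
let-7i-5p with a U tail: ugagguaguaguuugugcuguuU
let-7i-5p without its last U: ugagguaguaguuugugcugu
let-7i hairpin: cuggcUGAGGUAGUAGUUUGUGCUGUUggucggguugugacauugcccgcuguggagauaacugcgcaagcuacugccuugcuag

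U tails made up 5.01%, 5.13%, 5.93%, 6.98% and 7.70% of the let-7i-5p reads in GH males and 7.18%, 8.43%, 8.57%, 9.27% and 10.1% in SI males. In females they made up 4.66%, 6.54%, 6.67%, 6.69% and 7.14% in GH rats and 6.92%, 7.20%, 7.37%, 7.55% and 8.01% in SI rats. In each sex 4 of 5 SI rats were above every GH rat. The log2 odds rose by 0.40 ± 0.10 (SE; limma, adjusted p = 0.029).

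Forms with a shorter 3′ end made up 11.4% ± 0.58 (GH) and 13.2% ± 0.67 (SI) in males and 11.5% ± 1.08 and 13.2% ± 1.13 in females (SD, n = 5). Their log2 odds rose by 0.23 ± 0.059 (SE; limma, adjusted p = 0.028). The reference form took 65.6% ± 2.59 (GH) and 60.6% ± 1.49 (SI) in males and 64.9% ± 0.93 and 62.7% ± 1.97 in females (SD, n = 5). Its log2 odds fell by 0.23 on the log2 scale (SE 0.054; limma, adjusted p = 0.021). A tails of let-7i-5p, at 12.7% ± 0.84 in GH and 12.8% ± 1.03 in SI rats (SD, n = 10), had a log2 odds difference of 0.013 ± 0.060 (SE; limma, adjusted p = 0.91).

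In males alone 1 of the 48 shares was called, against a background of 1.4%, the reference form of let-7i-5p (log2 odds −0.32, limma adjusted p = 0.049). This call was lost with the 2 rats numbered 17 exchanged, and in 14 of 20 fits without 1 rat no share was called in males. In females 0 of 48 were called by limma, against a background of 0%, and 3 had an unadjusted p under 0.05, as did 13.6% of all 786 shares. Over both sexes the call of the reference form held in each fit without 1 rat, and the calls of the U tail and of the shorter end were each lost in 3 of 20. Without the GH male numbered 19, only 1 of the 48 shares was called, and 4.33% of all shares.

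**Figure D4:**
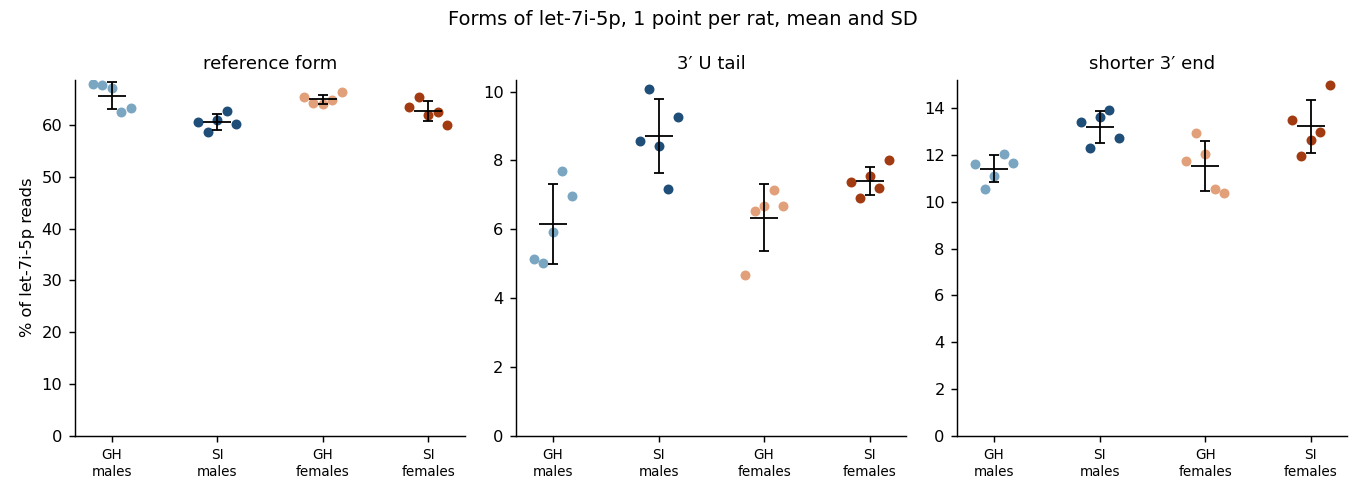
Share of let-7i-5p reads (vertical axes, percent, from 0) in the reference form, with a 3′ U tail and with a shorter 3′ end, in the 4 groups; points are rats and bars the mean and SD of 5 rats. U tails lie between 4.66% and 7.70% in GH rats and between 6.92% and 10.1% in SI rats.

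Tested one by one, the forms gave no call. Of 1351 isomiRs of the members among 10290 tested, edgeR called 0 over both sexes, against a background of 0.253%. It called 0 in males (background 0.00972%) and 0 in females (background 0%), and 125, 74 and 63 had an unadjusted p under 0.05. These were 9.25%, 5.48% and 4.66% of the members' isomiRs, below the 14%, 9.11% and 9.22% of all isomiRs. limma voom called 10 of the members' isomiRs over both sexes, and 2.9% of all isomiRs. Restricted to isomiRs with 10 counts in every library, edgeR called 22 of 436, and 12.5% of all. Without the SI female numbered 10, edgeR called 11, and 2.25% of all. The study reported let-7i-5p with an added U as raised in males. Here that form had a log2 fold change of 0.64 ± 0.20 in males (SE; edgeR, adjusted p = 0.29) and was not called.

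The lowest adjusted p over both sexes belonged to let-7d-5p without its first base, a form whose seed is moved by 1 base, printed with that moved seed in capitals.

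let-7d-5p without its first base: gAGGUAGUagguugcauaguu

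This form was at 156.2 ± 17.6 and 266.2 ± 59.0 RPM in GH and SI males and at 136.7 ± 27.9 and 269.0 ± 108.1 in GH and SI females (SD, n = 5). Its log2 fold change was 0.66 ± 0.14 (SE; edgeR, adjusted p = 0.052), the same size as that of let-7d-5p as a whole. The form of miR-98-5p with an added U followed among those read in every library, at 182.4 ± 5.17 RPM (GH) and 306.2 ± 28.5 RPM (SI) in males and 175.2 ± 72.9 and 320.7 ± 112.2 RPM in females (SD, n = 5; log2 fold change 0.62 ± 0.15, SE; edgeR adjusted p = 0.077). Next came let-7d-5p without its last base (0.47 ± 0.12, adjusted p = 0.083) and let-7a-5p without its last 2 bases and with an added A (0.73 ± 0.19, adjusted p = 0.083; edgeR).

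The other arm of each hairpin, usually degraded after the guide is loaded, was far less abundant. Of 11 such arms tested, 2 rose and 1 fell over both sexes, where 17.6% of all miRNAs were called. let-7i-3p fell by 1.25 on the log2 scale (SE 0.32; edgeR, adjusted p = 0.011), while let-7i-5p of the same hairpin had a difference of 0.22. It was at 18.2, 28.9, 29.7, 36.7 and 40.5 RPM in GH males and at 7.60, 10.3, 10.7, 16.5 and 17.3 in SI males. In females it was at 34.2, 47.7, 55.8, 65.0 and 86.7 in GH rats and at 5.18, 21.4, 22.8, 31.8 and 44.6 in SI rats. The male groups did not overlap (9.2% of all miRNAs had every SI male below every GH male), and the female groups overlapped. These values rest on 27 to 403 reads per library, and the call held in each fit without 1 rat.

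The log2 ratio of let-7i-5p to let-7i-3p was 8.86 ± 0.44 (GH) and 10.4 ± 0.37 (SI) in males and 7.92 ± 0.69 and 9.51 ± 1.19 in females (SD, n = 5). For let-7d it was 3.04 ± 0.64 and 3.32 ± 0.46 in GH and SI males and 2.73 ± 0.51 and 2.89 ± 0.24 in females. The ratio of the let-7b arms was 7.07 ± 0.38 and 6.39 ± 0.54 in males and 6.53 ± 0.34 and 6.65 ± 0.32 in females, so the means moved in opposite directions in the sexes. The same held for miR-98, at 8.07 ± 1.17 and 7.56 ± 0.52 in males and 7.01 ± 0.57 and 8.05 ± 0.90 in females (SD, n = 5). For let-7e the means were 8.92 and 8.25 in males and 8.57 and 8.91 in females, also in opposite directions, and the ranges of GH and SI rats overlapped in each sex. These differences in the ratio were not tested, and no ratio was computed for the members that come from 2 genes.

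let-7b-3p rose by 0.63 ± 0.19 (SE; edgeR, adjusted p = 0.026), although let-7b-5p did not pass. let-7c-1-3p rose by 1.16 ± 0.37 (SE; edgeR, adjusted p = 0.034) on 31 to 442 reads per library, and this call was lost in 8 of 20 fits without 1 rat. The 2 arms named let-7a-1-3p and let-7c-2-3p have the same sequence and the same counts and cannot be told apart. let-7a-2-3p was at 0 in 10 libraries, let-7f-2-3p in 8 and let-7f-1-3p in 4.

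**Figure D5:**
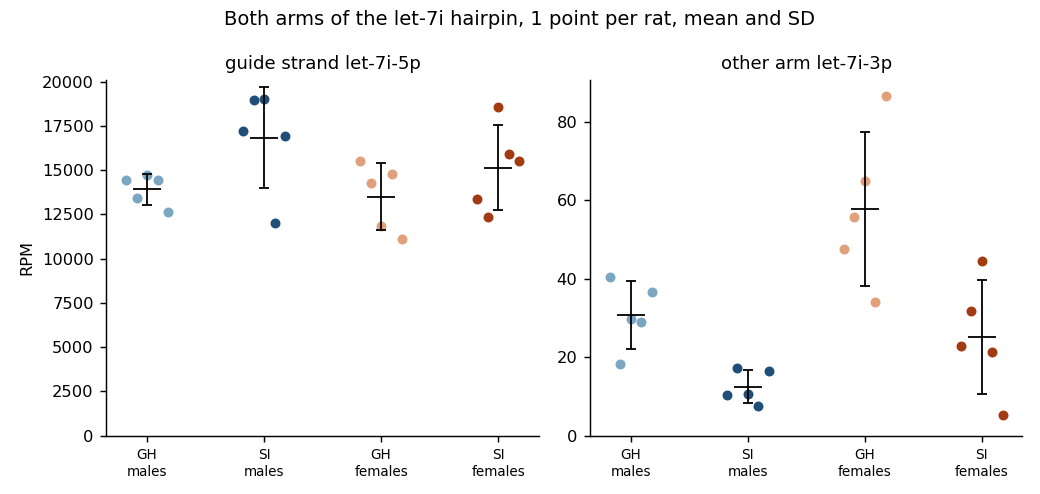
RPM (vertical axes, from 0) of the 2 arms of the let-7i hairpin in the 4 groups; points are rats and bars the mean and SD of 5 rats. let-7i-5p lies between 11136 and 19009 in all rats, and let-7i-3p runs from 18.2 to 86.7 in GH rats and from 5.18 to 44.6 in SI rats.

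Several let-7 genes are transcribed together with miR-99, miR-100 and miR-125 family members. Of 5 such partners 0 rose and 1 fell over both sexes, where 17.6% of all miRNAs were called. miR-99a-5p, which lies beside let-7c-1, fell, with 5616 ± 226 RPM (GH) and 3128 ± 603 RPM (SI) among males and 6049 ± 1251 and 3812 ± 1873 RPM among females (SD, n = 5; log2 fold change −0.76, SE 0.20; edgeR, adjusted p = 0.013). miR-125a-5p, a partner of let-7e, was at 0.36 ± 0.16 (SE; edgeR, adjusted p = 0.12). miR-99b-5p, miR-100-5p and miR-125b-5p had log2 fold changes of 0.071, 0.034 and −0.0038.

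Where a mature sequence comes from 2 genes, reads with 1 further templated base at the 5′ end tell the genes apart, since the hairpins differ there. Such reads are rare, between 0.263% (let-7f-5p) and 0.426% (let-7a-5p) of a member's reads, and they count only molecules cut 1 base upstream. Among them let-7a-1 made up 31.2% ± 6.72, against let-7a-2 for the rest, let-7c-1 54.9% ± 4.20, against let-7c-2, and let-7f-1 41.0% ± 6.73, against let-7f-2 (SD, n = 20). These shares were 29.8% ± 5.10 in GH and 32.5% ± 8.08 in SI rats for let-7a-1, 55.2% ± 2.85 and 54.5% ± 5.38 for let-7c-1, and 39.8% ± 5.46 and 42.1% ± 7.92 for let-7f-1 (SD, n = 10). The ranges of GH and SI rats overlapped for all 3.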

How the data were processed

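Per the labels and the study's methods, total RNA (215 ng) of the adBNST was made into libraries with adapters ligated at both ends and 22 cycles of PCR, and the authors ran the bcbio pipeline, in which adapters were cut off with cutadapt and collapsed reads were assigned by seqbuster to the rat hairpins of miRBase 21. The submitters' processing notes also name FastQC and STAR. Versions of these tools are not given in the sources used here. The authors deposited, for each library, the raw count of reads of each distinct sequence with its miRNA, mismatch, 3′ addition and end fields, without normalization. Sequences read once are not in these counts, and reads carry no molecular identifiers here.

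Counts were summed per miRNA and per isomiR (miRNA with its fields), with reads of ambiguous origin entered for every miRNA they matched. Features that reached 10 counts in 5 or more of the 20 libraries were fitted in edgeR 4.0.16 (R 4.3.3; TMM, quasi-likelihood F test, 4 groups, Benjamini-Hochberg over all features tested, threshold 0.05). The comparison over both sexes averaged the male and female contrasts. The standard error of an edgeR value is its log2 fold change over the square root of F. Class shares were compared with limma 3.58.1 on log2 odds, with 0.5 reads added. DESeq2 1.42.0 was an alternative, run on all miRNAs with its own independent filtering. The fits were tested on simulated data.

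The members and the gene lists were chosen with earlier results of these data known. The text names all members, the isomiRs with the lowest adjusted p, the 5 miRNAs most like the members' sum, the lists of cluster partners and other arms, and marker lists. The labels give an animal per library and do not say whether rats were littermates. Animal numbers shared by GH and SI rats of a sex (5 pairs) were not used to pair the samples in the main fits. Deviations of same-numbered rats correlated between −0.59 and 0.17, and so few pairs cannot exclude a shared litter or batch. Computations in Python 3.11.15 used pandas 2.3.3 and numpy 2.4.6.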

Additional observations from a re-analysis of the deposited data

Results flagged for a closer look

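In 3 cases a value stood apart from the other 4 rats of their group, among 48 groups of 5 that were examined (about 1 in 20 is flagged by chance). let-7i-5p in the SI male numbered 17 was the lowest of its group, at 13.55 on the log2 scale of RPM, with the next rat at 14.05. The file name of this library gives the other sex than its label. miR-98-5p in the GH male numbered 21 was the highest of its group, at 13.04, with the next rat at 12.82. The U tail share of let-7i-5p in the GH female numbered 15 was the lowest of its group, at 4.66% of its reads, with the next rat at 6.54%.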

How the results depend on the processing

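Over both sexes, none of the members' log2 fold changes changed sign under the alternatives run. In 117 of 128 values under other settings and 145 of 160 with 1 rat left out, each member stayed on its side of the threshold. With a GC trend removed within each library (chosen after seeing the data) 7 members were called over both sexes and 4 in females. Of all miRNAs 24.6% and 10% were called there, and the cause was not tested. In males limma voom called 3 members (17.4% of all miRNAs) and edgeR on the groups compared 4 (17.8%). In females DESeq2 called 2 (17.9% of all miRNAs with an adjusted p) and the filter of 10 counts in every library 1 (13%). Scaling by library totals moved the median of all miRNAs over both sexes from −0.0046 to −0.19 and that of the members from 0.52 to 0.34. It called 3 members and 18% of all miRNAs. Of all calls 17 of 90 were then higher in SI, against 37 of 88. With the GC trend removed, 73 of 123 calls were higher.

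let-7b-5p in males turned to −0.083 with library totals, −0.075 without both rats numbered 17 and −0.019 without the SI male numbered 20 and the SI female numbered 16. With 1 rat left out it ran from −0.10 (without the GH male numbered 20) to 0.45 (without the GH male numbered 16). let-7i-5p in females turned to −0.059 with library totals. With 1 rat left out, the members called over both sexes ran from 3 to 6, where 11.6% to 23.4% of all miRNAs were called. In females they ran from 0 to 4 (0.2% to 12.6% of all miRNAs). The members' isomiRs called over both sexes ran from 0 to 11 (without the SI female numbered 10), where 0.0486% to 2.25% of all isomiRs were called. Their shares called ran from 1 to 3 over both sexes (3.31% to 9.67% of all shares) and from 0 to 2 in males (0% to 5.85%). Over both sexes, the members' isomiRs called numbered 1 with DESeq2 size factors (0.369% of all isomiRs), 10 with limma voom (2.9%) and 22 with 10 counts in every library (12.5%). Shares of the members called over both sexes numbered 1 with a minimum of 200 reads (2.99% of all shares). In males 0 of their shares were called with that minimum (0.552% of all) and 0 with the rats numbered 17 exchanged (0.127%).

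The labels do not say whether animal numbers shared by GH and SI rats pair them, and the few correlations of same-numbered rats cannot decide it. With the replicate block, 0 members were called over both sexes, and 0 shares over both sexes and 0 in males. Of all miRNAs and all shares 0% were called with the block as well. That fit had few residual degrees of freedom, since only 5 numbers occur in both a GH and an SI rat of a sex.

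With 5 rats a group, differences such as that of let-7i-5p could not be told from the spread between rats. Counts per member were high in each library, so counting error was small beside that spread, whereas let-7i-3p and let-7c-1-3p rest on far fewer reads.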

Other observations

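Rare forms of the members gave the most extreme fold changes, on few reads. let-7c-5p without its first 2 bases and with 1 more templated base at its 3′ end was at 0 in 8 of 20 libraries and reached at most 45 reads. let-7b-5p with an added UGU after a longer end was at 0 in 10 libraries and reached at most 26 reads. let-7a-5p without its last base and with an added GU was at 0 in 6 libraries and reached at most 46 reads. None of these forms passed the edgeR test with adjustment over 10290 isomiRs.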
